A study of Mus musculus with 11 samples.

Results

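The genes described here act in glucose making, glycogen and glycolysis in the liver, and 28 of the 30 on the list had a probe on the arrays, out of 21266 genes named there. A gene was taken in when the name of a probe, or the current symbol of its accession, was on the list. Pck1 and Irs2 matched no probe and were not analysed here. The 28 genes had 45 probes, of which 44 were bright enough to be tested. Of the listed genes, 9 of 10 for glucose making, 7 of 7 for glycogen and 12 of 12 for glycolysis were measured, and all 28 passed the filter on dim probes.

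The livers came from 11 newborn mice on a hybrid 129 x C57BL/6 background. Mutants were Double transgenic AFP-Cre/Rosa26-lsl-NICD pups. In these the alpha-fetoprotein promoter, active in the precursors of hepatocytes and bile duct cells, drives Cre, which switches on NICD, the active intracellular part of the receptor Notch, from the Rosa26 locus. Controls were Mono transgenic Rosa26-lsl-NICD pups without Cre. Since Cre was not given alone to any group, what NICD and Cre each did cannot be told apart. The pups were 3 mutants and 3 controls aged 2 days (day 2), and 3 mutants and 2 controls from the day of birth (day 0). Total RNA of whole liver was labelled with Cy3 and hybridised in 1 colour to Agilent arrays of the whole mouse genome.

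At birth the supply of glucose through the placenta ends. The newborn liver then breaks down the glycogen it stored before birth and begins to make glucose from lactate and amino acids. Glycogen is built by glycogen synthase (Gys2 in liver) and broken down by glycogen phosphorylase (Pygl), and proteins such as Ppp1r3b and Ppp1r3c carry a phosphatase to the glycogen particle, which turns synthesis on. Glucose making runs from pyruvate through Pcx, Pck1 and Fbp1 to G6pc, and glycolysis runs the other way, with hexokinases at its entry and pyruvate kinase (Pklr in liver) at its end.

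A level is given as the log2 signal of a probe relative to the 75th percentile of its array, so 0 is the signal at that percentile and 1 unit is a 2-fold difference. Levels of different probes are not on one scale. The 75th percentile lay between 607.72 and 1301.55 intensity units, and between 63.3% and 68.6% of an array's spots passed as well above background. Differences were tested with limma across 15889 genes, and a gene was called at a Benjamini-Hochberg adjusted p under 0.05. Precision is limited by the number of arrays. The labels do not say how pups were chosen from litters, so the p-values refer to the spread among these 11 samples alone. One array stood apart. Mutant day 0 replicate 3 correlated across genes at 0.956 and 0.954 with the other day 0 mutants, while all other pairs within a group reached at least 0.983. It lay at least 1 unit above all 10 other arrays for 614 genes and at least 1 unit below them for 470, against at most 59 and 66 genes for any other array. Results are therefore given with and without it. From sex-linked genes, all 3 day 0 mutants read as female and both day 0 controls as male. Each day 2 group held 2 females and 1 male. Sex and genotype thus cannot be told apart at day 0. The share of females also differed between day 0 and day 2 in both genotypes, so sex is partly mixed with age.

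The NICD target Nrarp, a feedback inhibitor of Notch, had levels of 1.91, 2.68 and 2.03 in the mutant day 2 livers, against -1.68, -1.42 and -1.77 in the control day 2 livers. It had levels of 0.85, 0.61 and -0.03 in the mutant day 0 livers, against -3.16 and -3.38 in the control day 0 livers. Every mutant lay above every control of its day, the direction that the labels give.

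Promoters of Ppp1r3c, Pygl and Pcx are shown because these 3 genes were lower in mutants and their start regions hold letters that Notch-related factors are known to bind. RefSeq (GRCm38.p6) gave 42 promoters for 26 of the 30 listed genes, each running from 250 bases before to 50 bases after the gene's start, and the shown strand is that of the gene. Of the 7 genes called lower over both days that had a promoter, these 3 held at least 1 of the searched motifs and the other 4 (Fbp1, Slc2a2, Pklr and Hk1) held 0, as did another RefSeq promoter of Pcx. Among genes not called over both days, Slc37a4, Gbe1, Gyg, Ugp2, Eno1, Ldha, Pfkfb1, Pfkfb3 and Pkm held at least 1 too. G6pc, Got1, Ppargc1a, Aldoa, Hk2, Pfkl, Pfkp and Slc2a1, also not called, held 0. Capitals mark CACGTG (the E box) and CACGAG (the N box, read as CTCGTG on the other strand), letters that Hes and Hey repressors are known to bind, and TGGGAA, the core letters of RBPJ, the DNA-binding partner of NICD.
Ppp1r3c, chr19:36736555-36736854, minus strand: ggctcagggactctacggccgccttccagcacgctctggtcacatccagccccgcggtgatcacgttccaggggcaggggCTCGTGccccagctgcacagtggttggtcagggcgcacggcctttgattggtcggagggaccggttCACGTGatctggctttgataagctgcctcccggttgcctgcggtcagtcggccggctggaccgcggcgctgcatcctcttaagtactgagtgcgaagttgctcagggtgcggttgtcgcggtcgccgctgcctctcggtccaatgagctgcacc
Pygl, chr12:70227634-70227933, minus strand: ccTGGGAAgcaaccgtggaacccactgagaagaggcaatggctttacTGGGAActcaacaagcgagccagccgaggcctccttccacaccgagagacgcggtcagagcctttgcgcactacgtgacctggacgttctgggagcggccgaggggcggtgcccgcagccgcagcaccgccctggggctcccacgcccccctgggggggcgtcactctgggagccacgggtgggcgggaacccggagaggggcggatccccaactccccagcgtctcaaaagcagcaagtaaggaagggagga
Pcx, chr19:4510222-4510521, plus strand: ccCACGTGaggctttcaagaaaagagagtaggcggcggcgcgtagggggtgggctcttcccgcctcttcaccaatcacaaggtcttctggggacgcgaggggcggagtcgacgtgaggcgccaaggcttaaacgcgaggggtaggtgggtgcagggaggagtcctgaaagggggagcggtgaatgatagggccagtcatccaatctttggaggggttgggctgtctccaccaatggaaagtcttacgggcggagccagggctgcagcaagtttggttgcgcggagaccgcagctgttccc
Searched on both strands, CACGTG stood in 6 of the 42 promoters (14.3%), against 7.15% of all 32851 RefSeq promoters of this length. CACGAG stood in 3 (7.14%, against 6.47% of all) and TGGGAA in 10 (23.8%, against 25.6% of all). The cAMP response element TGACGTCA stood in 1 promoter, that of Ldha, and the forkhead letters GTAAACA in 0, against 1.79% and 3.65% of all promoters. The shares were not tested, and a match of letters is a description of the sequence alone. No promoter was at hand for Gys2, Sds, Gpt and Ppp1r3b.

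Over both days, 10 of the 28 genes differed between mutants and controls. In mutants 9 were lower (Pcx, Fbp1, Slc2a2, Gpt, Gys2, Pygl, Ppp1r3c, Pklr and Hk1) and 1 was higher (Sds). Of all 15889 genes tested, 15.3% were called, 6.68% lower and 8.66% higher. By role, 4 of 9 glucose-making genes were lower and 1 higher, 3 of 7 glycogen genes were lower, and 2 of 12 glycolysis genes were lower. The median difference was -0.37 over the 28 genes and -0.05 over all genes. In 7 of the 28 every mutant lay below every control of its day on both days, as in 6.92% of all genes, and in 0 every mutant lay above, as in 7.29% of all genes. Without mutant day 0 replicate 3, 13 of 28 were called (12 lower, 1 higher), and all 10 were among them, while 24.7% of all genes were called, 11.9% lower and 12.8% higher. With array weights 12 of 28 were called (29.3% of all genes), and with trended and robust eBayes 10 (16.7%). In the settings that follow both the count of members and that of all genes were lower. Without control day 0 replicate 1 or 2 the count was 4 or 5 of 28 (8.07% and 8.19% of all genes), without mutant day 2 replicate 2 it was 6 (10.1%), and with sex as a covariate it was 3 (Pcx, Gys2 and Hk1), where 6.34% of all genes were called.

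**Figure D1:**
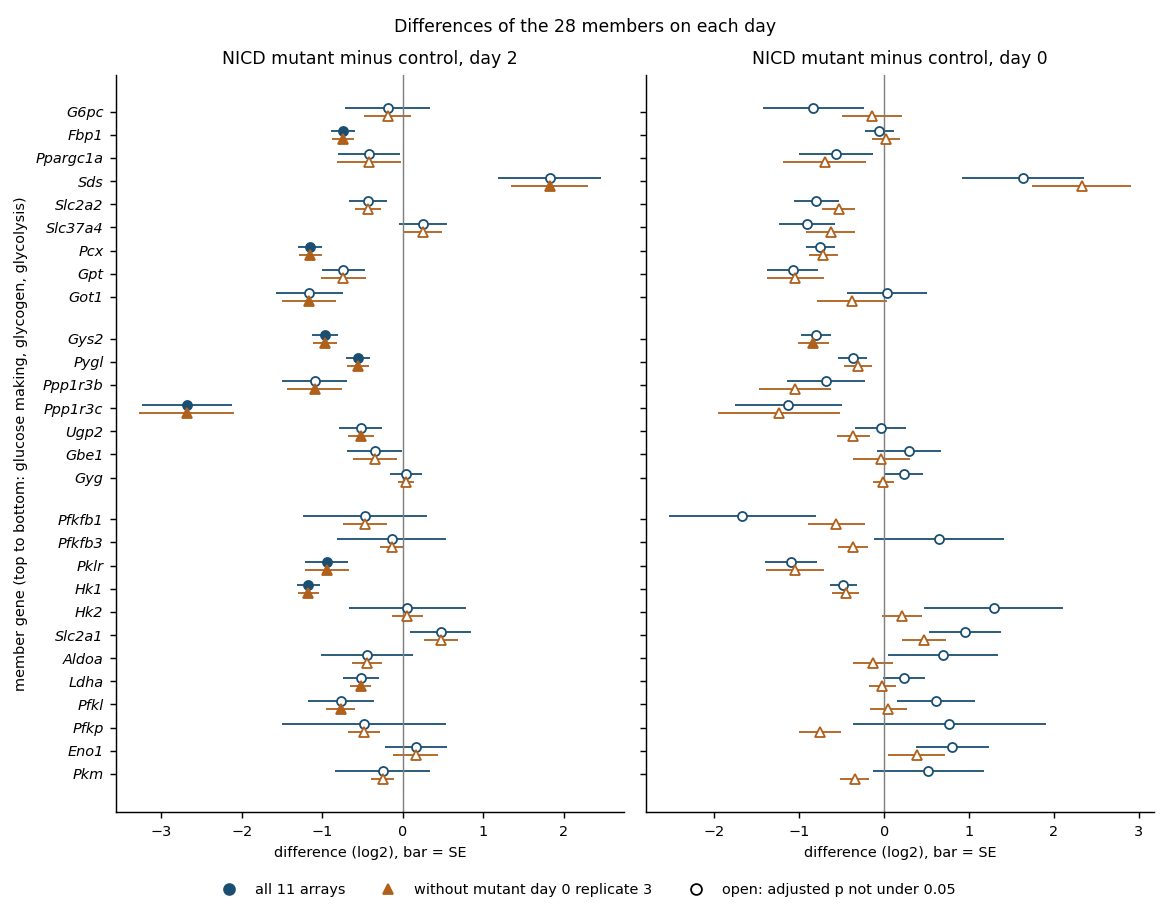
Difference between NICD mutant and control livers (log2 units, bars are SE) for each of the 28 genes at day 2 (left) and day 0 (right). Circles use all 11 arrays and triangles leave out mutant day 0 replicate 3; filled marks are called. At day 2 most marks lie left of 0, with Ppp1r3c lowest at -2.68 and Sds highest at 1.83, and at day 0 the marks of 9 of the 12 glycolysis genes move left when the array is left out.

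Pcx, pyruvate carboxylase, which makes oxaloacetate for the first step of glucose making, was lower in mutants over both days. Its levels at day 2 were 5.09, 4.75 and 5.11 in the mutant day 2 livers, against 6.20, 6.14 and 6.07 in the control day 2 livers. At day 0 they were 5.89, 5.76 and 5.72 in the mutant day 0 livers, against 6.71 and 6.37 in the control day 0 livers. Every mutant lay below every control of its day. The probe lies at chr19:4621637-4621696 (mm8, as are all probe positions here). The mutants differed over both days by -0.95 ± 0.12 (SE, adjusted p = 0.000715), or 1.93-fold lower, and in the 5 pairs of a mutant and a control of the same day on the same slide the difference ran from -1.39 to -0.61. Pcx passed in all 21 alternative settings over both days. In whole liver, fewer cells that express a gene and less RNA per cell cannot be told apart.

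Gpt, alanine aminotransferase, which turns alanine into pyruvate, had levels of 1.46, 1.75 and 2.63 in the mutant day 2 livers, against 2.47, 2.69 and 2.90 in the control day 2 livers. At birth the levels were 0.14, 0.03 and 0.00 in the mutant day 0 livers, against 1.09 and 1.17 in the control day 0 livers. The groups overlapped at day 2, where mutant replicate 3 lay within the controls, and did not overlap at day 0. Over both days the mutants differed by -0.91 ± 0.20 (SE, adjusted p = 0.016) (probe at chr15:76526592-76526722), and from -1.14 to -0.26 within slides. The call was lost without either day 0 control and with sex as a covariate, with an adjusted p of up to 0.0669 over the alternatives.

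Fbp1, fructose bisphosphatase, the step that turns fructose bisphosphate back, had levels of 7.62, 7.47 and 7.87 in the mutant day 2 livers, against 8.52, 8.40 and 8.26 in the control day 2 livers, with no overlap. In day 0 livers the levels were 8.22, 8.37 and 8.05 in the mutant day 0 livers, against 8.27 and 8.28 in the control day 0 livers, and the groups overlapped. Fbp1 was 1.67-fold lower at day 2, -0.74 ± 0.15 (SE, adjusted p = 0.0113), and across both days the mutants differed by -0.40 ± 0.11 (SE, adjusted p = 0.045) (probe at chr13:62874438-62874497). Within slides it was below 0 in 4 of 5 pairs, from -0.93 to 0.09. The call over both days passed in 8 of 21 alternatives, with differences from -0.46 to -0.20. It was lost with quantile normalization, the authors' RMA table, no filter, sex as a covariate and slide as a replicate block (adjusted p = 0.0914 with the block), and without any 1 of the 5 controls, mutant day 0 replicate 1 or mutant day 2 replicates 1 or 2. The day 2 call was lost without mutant day 2 replicate 2, with quantile normalization (-0.22, adjusted p = 0.492) and with the authors' RMA table (-0.28, adjusted p = 0.322).

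Slc2a2, the glucose transporter GLUT2 through which glucose enters and leaves hepatocytes, had levels of 2.33, 2.28 and 2.52 in the mutant day 2 livers, against 2.72, 2.91 and 2.81 in the control day 2 livers. Its levels at birth were 2.37, 2.39 and 1.58 in the mutant day 0 livers, against 3.21 and 2.62 in the control day 0 livers. Mutants lay below controls on both days without overlap, and the mutants differed over both days by -0.62 ± 0.18 (SE, adjusted p = 0.0479), from -0.84 to -0.23 within slides (probe at chr3:28919167-28919226). The call passed in 8 of 21 alternatives. It was lost with quantile normalization, no filter, sex as a covariate and slide as a replicate block (adjusted p = 0.0919 with the block), and without any 1 of the controls, mutant day 0 replicate 1 or any day 2 mutant.

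Sds, serine dehydratase, which turns serine into pyruvate, was the 1 gene of the 28 called higher in mutants over both days. With all arrays 9 of the 28 had a difference above 0. Its levels were 3.60, 4.47 and 5.13 in the mutant day 2 livers, against 2.58, 3.36 and 1.78 in the control day 2 livers, with no overlap. At day 0 they were 2.91, 3.20 and 0.98 in the mutant day 0 livers, against 0.38 and 1.08 in the control day 0 livers, and here replicate 3, at 0.98, lay below 1 control while replicates 1 and 2 lay above both. Over both days the mutants differed by 1.73 ± 0.48 (SE, adjusted p = 0.0392), or 3.32-fold higher (probe at chr5:120743713-120743772), and within slides the difference ran from 1.03 to 3.34. Without mutant day 0 replicate 3 it was 2.08 (adjusted p = 0.00572). The call passed in 11 of 21 alternatives, with adjusted p from 0.00468 to 0.241, and was lost with no filter, with sex as a covariate, and without either day 0 control, control day 2 replicates 1 or 3, mutant day 0 replicates 1 or 2, or mutant day 2 replicates 2 or 3.

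The other 4 glucose-making genes were not called over both days. G6pc, glucose 6-phosphatase, the last step of glucose release, differed by -0.51 ± 0.40 (SE, adjusted p = 0.441), and by -0.17 without mutant day 0 replicate 3. Slc37a4, which carries glucose 6-phosphate to that enzyme, differed by 0.25 at day 2 and -0.91 at day 0, with a difference between the days of 1.16 ± 0.45 (SE, adjusted p = 0.293). Got1, aspartate aminotransferase, differed by -1.16 ± 0.42 (SE, adjusted p = 0.0943) at day 2, and was called there without mutant day 0 replicate 3 (adjusted p = 0.0339). Ppargc1a, a coactivator that raises glucose-making genes in fasting, differed by -0.49 ± 0.29 (SE, adjusted p = 0.299).

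**Figure D2:**
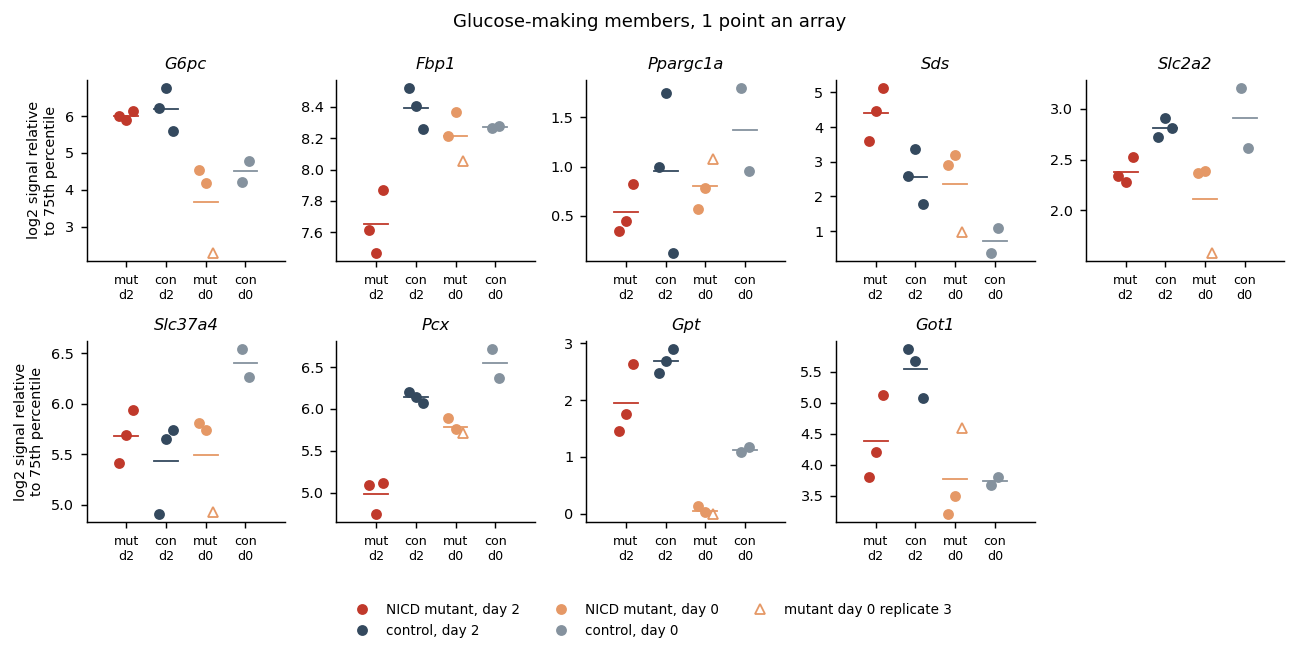
Level of the 9 measured glucose-making genes on each array (log2 signal relative to the array's 75th percentile; each panel has its own scale). Points are arrays, bars are group means, mutant before control for day 2 and then day 0, and the open triangle is mutant day 0 replicate 3; for Pcx every mutant lies below every control of its day, and Sds is highest in the day 2 mutants.

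Among the glycogen genes, Ppp1r3c, the targeting subunit also called PTG, was lowest in mutants relative to controls. Its levels were -5.21, -6.89 and -4.45 in the mutant day 2 livers, against -2.82, -3.52 and -2.16 in the control day 2 livers, and mutant replicate 2 was not well above background. At birth they were -1.29, -1.22 and -0.93 in the mutant day 0 livers, against 0.26 and -0.29 in the control day 0 livers. The groups did not overlap on either day. It was lower at day 2 by a log2 difference of -2.68 ± 0.56 (SE, adjusted p = 0.0119), and across both days the mutants differed by -1.91 ± 0.42 (SE, adjusted p = 0.0154) (probe at chr19:36797111-36797170). Another probe, well above background on 6 of the 11 arrays, gave -1.91 over both days, and same-slide pairs ran from -3.37 to -0.93. Since 1 of the 3 day 2 mutant arrays was not well above background, no fold is given. The difference at day 2 was called without that array too (adjusted p = 0.0204), and was -1.44 with normexp background correction (adjusted p = 0.00292). The call over both days was lost without control day 0 replicate 1 (adjusted p = 0.0747) and with sex as a covariate (adjusted p = 0.114).

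Gys2, liver glycogen synthase, had levels of 4.49, 4.27 and 4.76 in the mutant day 2 livers, against 5.38, 5.53 and 5.51 in the control day 2 livers. The day 0 levels were 4.56, 4.78 and 4.75 in the mutant day 0 livers, against 5.61 and 5.40 in the control day 0 livers. Mutants lay below controls on both days without overlap, and the difference was -0.89 ± 0.12 (SE, adjusted p = 0.00126), 1.85-fold lower, from -1.26 to -0.62 within slides (probe at chr6:142379908-142379967). It passed in all 21 alternatives. Pygl, liver glycogen phosphorylase, which breaks glycogen down, had levels of 5.42, 5.29 and 5.60 in the mutant day 2 livers, against 5.88, 6.22 and 5.88 in the control day 2 livers, and of 6.39, 6.44 and 6.23 in the mutant day 0 livers, against 6.78 and 6.66 in the control day 0 livers. These groups did not overlap either, although the difference was smaller, -0.46 ± 0.11 (SE, adjusted p = 0.0249), from -0.93 to -0.22 within slides (probe at chr12:71109473-71109532).

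The Pygl call over both days was lost with slide as a replicate block (adjusted p = 0.0573), quantile normalization, the authors' RMA table, the mean of its probes and sex as a covariate, and without either day 0 control, control day 2 replicate 2 or mutant day 2 replicates 1 or 2. At day 2 its difference of -0.55 passed (adjusted p = 0.0373), but in 7 of 22 alternatives only. It was -0.20 with quantile normalization (adjusted p = 0.447), and the block gave an adjusted p of 0.0662. Another, much dimmer Pygl probe was well above background on the 5 day 0 arrays only, with -4.19, -4.77 and -4.15 in mutants against -3.68 and -3.43 in controls.

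Ppp1r3b, the targeting subunit GL of liver, had levels of -4.13, -4.21 and -3.17 in the mutant day 2 livers, against -3.01, -3.11 and -2.09 in the control day 2 livers. Its birth levels were -0.27, 0.01 and 0.97 in the mutant day 0 livers, against 1.06 and 0.78 in the control day 0 livers, where replicate 3 alone lay within the controls. The mutants differed over both days by -0.89 ± 0.31 (SE, adjusted p = 0.0832), and Ppp1r3b was called without mutant day 0 replicate 3 (-1.07, adjusted p = 0.0234) and with slide as a replicate block (-1.06, adjusted p = 0.00146). All 5 same-slide pairs lay below 0. Ugp2, which makes the UDP-glucose that glycogen is built from, differed by -0.28 ± 0.20 (SE, adjusted p = 0.397), and by -0.44 without that array (adjusted p = 0.0352). Gbe1, the branching enzyme, and Gyg, the glycogenin that primes new glycogen, differed by -0.03 and 0.14 (adjusted p = 0.959 and 0.595).

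**Figure D3:**
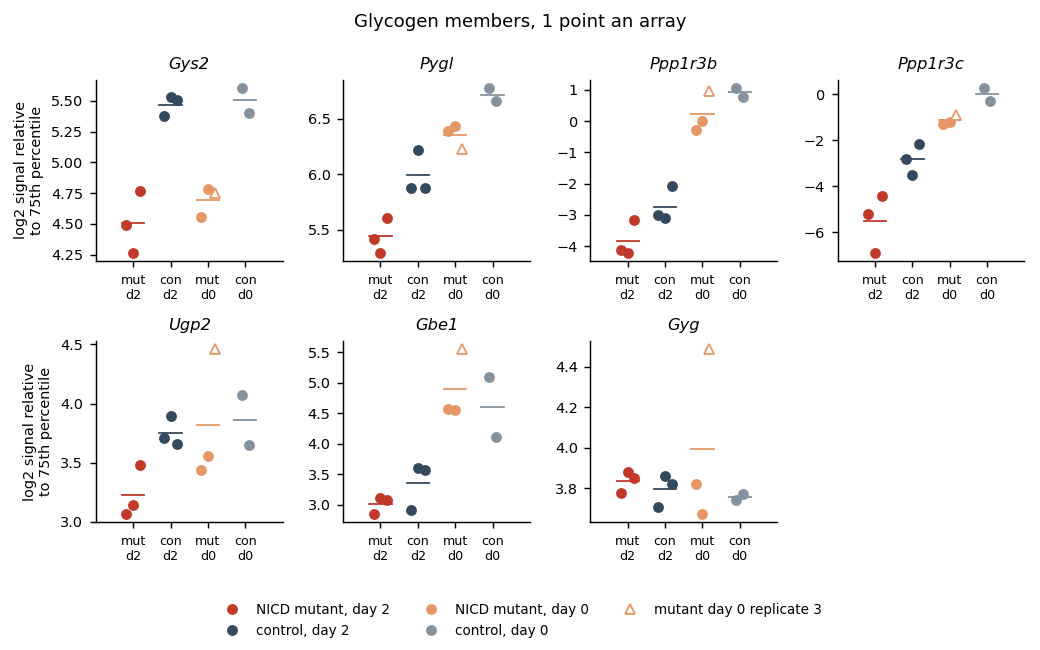
Level of the 7 glycogen genes on each array (log2 signal relative to the array's 75th percentile; each panel has its own scale). Points are arrays, bars are group means, and the open triangle is mutant day 0 replicate 3; for Gys2 and Ppp1r3c every mutant lies below every control of its day, and Ppp1r3b and Ppp1r3c are lower at day 2 than at day 0 in both genotypes.

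Pklr, liver pyruvate kinase, the last step of glycolysis, had levels of -1.13, -1.26 and -1.46 in the mutant day 2 livers, against -0.68, -0.32 and -0.02 in the control day 2 livers. At day 0 its levels were -0.94, -0.23 and -0.73 in the mutant day 0 livers, against 0.86 and 0.07 in the control day 0 livers. The groups did not overlap on either day, and over both days the mutants differed by -1.02 ± 0.20 (SE, adjusted p = 0.00939), 2.03-fold lower, from -1.80 to -0.30 within slides (probe at chr3:89230912-89231430). At day 2 alone the difference of -0.94 (adjusted p = 0.0432) was lost without any 1 of the 6 day 2 arrays, and it was also lost with no filter and with the replicate block (adjusted p of 0.0773 with the block). Over both days it was lost with sex as a covariate.

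Hk1, a hexokinase that traps glucose in the cell, had levels of 3.56, 3.36 and 3.54 in the mutant day 2 livers, against 4.67, 4.59 and 4.72 in the control day 2 livers. Levels at birth were 4.18, 4.33 and 4.18 in the mutant day 0 livers, against 4.90 and 4.52 in the control day 0 livers. Again no mutant reached a control. The difference was -0.83 ± 0.11 (SE, adjusted p = 0.00101) over both days and -1.17 ± 0.14 (SE, adjusted p = 0.000735) at day 2, 2.25-fold lower there, and from -1.22 to -0.19 within slides (probe at chr10:61664525-61664584). Of Hk1, 5 probes were tested, and their differences over both days ran from -0.87 to -0.34. Hk1 passed in all 21 alternatives over both days and all 22 at day 2.

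Hk1 and Pklr are also enzymes of red cells, and markers of red cell precursors were lower in mutants too. Slc2a1, a glucose transporter of red cells and many other cells, went the other way, at 0.71 over both days. It was not called (adjusted p = 0.131, limma). Of 13 such markers, 4 were lower in mutants over both days and 8 at day 2, and 0 were higher. Without mutant day 0 replicate 3, 10 were lower over both days and 13 at day 2. At day 0 alone 0 of the 13 were called in either fit, where 2.16% of all genes were called with that array and 5.25% without it. Of all genes, 6.68% were lower over both days and 6.34% at day 2. Without that array the shares lower were 11.9% and 14.4%. The share of all genes higher over both days was 8.66%, and 12.8% without that array. The summed linear level of the red cell precursor markers was 431 to 624 in day 2 mutants, against 933 to 1187 in day 2 controls, and 1000.1 to 1470.2 in day 0 mutants (1000.1 to 1239.5 without replicate 3), against 1184 to 1273 in day 0 controls. Of 11 hepatocyte markers 6 were lower over both days (9 without replicate 3) and 0 higher, with sums of 1902 to 2053 in day 2 mutants against 2652 to 3466 in day 2 controls, and of 2793 to 3673 in day 0 mutants (2793 to 3018 without replicate 3) against 3238 to 3461 in day 0 controls. Of 11 bile duct markers 10 were higher and 0 lower with and without that array, with sums of 237 to 283 in day 2 mutants against 11.1 to 19.4 in day 2 controls. At day 0 the bile duct sums were 103 to 351 in mutants (179 to 351 without replicate 3) against 24.1 to 27.8 in controls. Of 10 megakaryocyte markers 2 were lower over both days and 10 without replicate 3, of 10 macrophage markers 5 and 6, of 10 granulocyte markers 0 and 9, and 0 of these were higher in either fit. The megakaryocyte sums were 48.3 to 53.8 in day 2 mutants against 93 to 104 in day 2 controls, and 36.6 to 125 in day 0 mutants (36.6 to 55 without replicate 3) against 97 to 123 in day 0 controls. The macrophage sums overlapped, with 96.2 to 148 in day 2 mutants against 118 to 131 in day 2 controls. At day 0 they overlapped too, with 113 to 130 in mutants against 126 to 166 in controls. Of the markers of these 6 cell types only Cldn4, a bile duct marker, was not well above background on any control array. Of 10 endothelial markers 1 was higher and 1 lower over both days, and 1 higher and 3 lower without replicate 3. Of 10 stellate cell and fibroblast markers 0 were called over both days in either fit. At day 2 alone 2 of them were higher, and 6 without replicate 3, and 0 were lower. The shares of all genes higher at day 2 were 9.45% and 14.4%. The sums of these markers were 71.8 to 121 in day 2 mutants against 63.5 to 71.7 in day 2 controls. At day 0 they were 82.7 to 185 in mutants (82.7 to 93.4 without replicate 3) against 110 to 117 in controls. The part of these cell types in the results above was not tested.

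The other 10 glycolysis genes were not called over both days, and in most of them mutant day 0 replicate 3 stood apart. Pfkfb3, which makes the activator of phosphofructokinase, had levels of 1.04, 0.98 and 4.06 in the mutant day 0 livers, against 1.56 and 1.20 in the control day 0 livers. Hk2 had levels of 1.86, 1.36 and 4.85 in the mutant day 0 livers, against 1.55 and 1.25 in the control day 0 livers, and Pfkp, the platelet form of phosphofructokinase, had -1.58, -1.50 and 3.04 in the mutant day 0 livers, against -0.51 and -1.05 in the control day 0 livers. In each, replicate 3 lay far above both groups, whose other arrays were close together. Replicate 3 was the highest of all 11 arrays for 9 of the 12 glycolysis genes, and by at least 1 unit for 8 of them (Pfkfb3, Hk2, Slc2a1, Aldoa, Pfkl, Pfkp, Eno1 and Pkm), while 3.86% of all genes lay that far above. None of the glucose-making and glycogen genes lay at least 1 unit above. Replicate 3 was still the highest of all 11 arrays for 3 of the 7 glycogen genes, Ugp2, Gbe1 and Gyg, by 0.39, 0.45 and 0.60.

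Pfkfb1, the liver form of the Pfkfb enzymes, went the other way, with 4.43, 4.66 and 1.23 in the mutant day 0 livers, against 4.98 and 5.25 in the control day 0 livers, and G6pc too, with 4.53, 4.17 and 2.29 in the mutant day 0 livers, against 4.21 and 4.79 in the control day 0 livers. Replicate 3 was the lowest of all 11 arrays for both genes, by at least 1 unit, as for 2.96% of all genes. The median difference of the 12 glycolysis genes at day 0 was 0.63 with this array and -0.24 without it, against -0.01 and 0.01 for all genes.

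**Figure D4:**
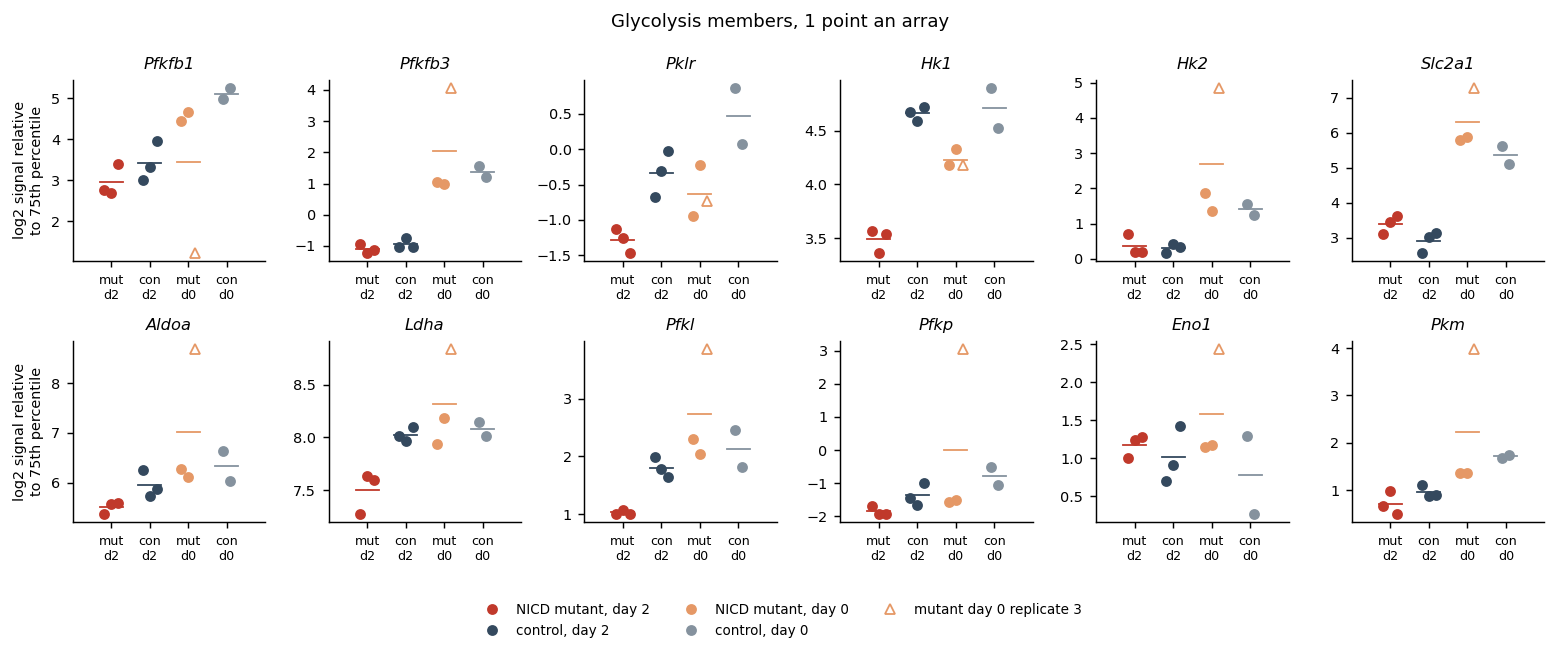
Level of the 12 glycolysis genes on each array (log2 signal relative to the array's 75th percentile; each panel has its own scale). Points are arrays, bars are group means, and the open triangle is mutant day 0 replicate 3, which lies above all other arrays for 9 of the 12 genes and below them for Pfkfb1.

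Without replicate 3 more genes were called at day 2. Of the 28 genes 13 were called there without it (12 lower, 1 higher), where 28.8% of all genes were called, 14.4% lower and 14.4% higher. With all arrays 7 were called, all lower, where 15.8% of all genes were called, 6.34% lower and 9.45% higher. Left out in turn, mutant day 2 replicate 2 reduced the 7 to 4 (8.55% of all genes). The 7 were Pcx, Fbp1, Gys2, Pygl, Ppp1r3c, Pklr and Hk1. Glycolysis genes among the added calls were Pfkl, the liver form of phosphofructokinase, at -0.77 (adjusted p = 0.241 with all arrays and 0.0151 without), and Ldha, lactate dehydrogenase, at -0.52 (adjusted p = 0.146 and 0.0209). Levels of Pfkl at day 2 were 1.00, 1.07 and 1.01 in the mutant day 2 livers, against 1.99, 1.77 and 1.63 in the control day 2 livers. Those of Ldha were 7.27, 7.63 and 7.59 in the mutant day 2 livers, against 8.01, 7.96 and 8.09 in the control day 2 livers. Neither gene's groups overlapped.

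At day 0, 0 of 28 genes were called by limma (2.16% of all genes), and 8 had an unadjusted p under 0.05, 7 of them lower in mutants. Gys2 came nearest (-0.81, adjusted p = 0.0536) and was called without mutant day 0 replicate 3 (adjusted p = 0.0396), when 5.25% of all genes were. The authors' RMA table gave 2 calls. No gene's difference was called as unlike between day 2 and day 0 (0 of 28, 5 at an unadjusted p under 0.05, 0.271% of all genes called). Hk1 came nearest at -0.69 ± 0.21 (SE, adjusted p = 0.214), and Fbp1 differed by -0.68 ± 0.23 (SE, adjusted p = 0.239).

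For the remaining glycolysis genes the differences over both days with and without replicate 3 were as follows. Pfkp was 0.14 with it and -0.62 without it, called lower (adjusted p = 0.0254), and its 3 tested probes differed in sign with all arrays, from -0.17 to 0.40. Slc2a1, the glucose transporter GLUT1 of red cells and many other cells, was 0.71 and 0.47 (adjusted p = 0.131 and 0.0776). Its same-slide pairs all lay above 0, from 0.15 to 0.79. Aldoa, an aldolase, was 0.13 and -0.29, and Pkm, the pyruvate kinase of tissues other than liver, 0.14 and -0.30. Eno1, an enolase, was 0.48 and 0.27. Pfkfb1 was -1.07 and -0.52, Pfkfb3 0.25 and -0.25, and Hk2 0.67 and 0.13. The sign of Aldoa, Pkm and Pfkfb3 thus differed with 1 array, and none of these 3 was called either way. Aldoa, Ldha, Pkm and Eno1 have processed pseudogenes whose transcripts a probe could also read, which was not tested.

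Between birth and day 2, 13 of 28 genes changed in mutants, 2 of them higher and 11 lower at day 2 (19.9% of all genes were called, 9.02% higher and 10.9% lower). In controls 6 of 28 changed, 2 higher and 4 lower (10.6% of all genes, 5.15% higher and 5.46% lower). Both glycogen targeting subunits were lower at day 2 in each genotype. Ppp1r3b averaged -3.84 ± 0.58 in day 2 mutants and 0.24 ± 0.65 in day 0 mutants (SD, n = 3 each), 16.8-fold lower at day 2 (adjusted p = 0.0008, limma). In controls it averaged -2.74 ± 0.56 at day 2 and 0.92 ± 0.20 at day 0 (SD, n = 3 and 2), 12.7-fold lower (adjusted p = 0.00309, limma). The day 0 mean of the mutants includes replicate 3, at 0.97, against -0.27 and 0.01 in replicates 1 and 2. Over the alternative settings the Ppp1r3b difference ran from -4.40 to -3.30 in mutants and from -4.00 to -3.10 in controls. Ppp1r3c differed by -4.37 log2 units in mutants and by -2.82 in controls (adjusted p = 0.00222 and 0.0254). With normexp correction these differences were -2.74 and -2.33, and the array not well above background makes the size in mutants uncertain. The call in controls was lost without either day 0 control, without control day 2 replicates 1 or 2, and with sex as a covariate.

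Slc2a1 fell by 7.61-fold in mutants and 5.46-fold in controls (adjusted p = 0.00233 and 0.0102). Without mutant day 0 replicate 3 its difference in mutants was -2.45 log2 units, and in controls it was -2.45 with all arrays. Pygl fell in both genotypes (-0.91 and -0.73), and Gpt rose in both (1.89 and 1.56). Got1 rose in controls (1.81, adjusted p = 0.0412), a call that passed in 10 of 22 alternatives. It was lost with quantile normalization, the authors' RMA table, no filter and sex as a covariate, among others. G6pc rose in mutants, 2.34 ± 0.53 (SE, adjusted p = 0.0172), or 5.06-fold. Without mutant day 0 replicate 3 the rise of G6pc was 3.15-fold in mutants, and it was 3.24-fold in controls, where it was then called (adjusted p = 0.009) and with all arrays was not (0.0955). Fbp1, Pcx, Gbe1, Hk1, Pfkfb3, Pfkl and Ldha also fell in mutants and were not called in controls. That these changes differ by genotype was not shown, since the test of the difference called none of them. In controls the fall of Gbe1 (-1.24, adjusted p = 0.0679, limma) passed in 5 of 22 alternatives. That of Pcx in controls (-0.40, adjusted p = 0.156, limma) passed in 2, quantile normalization and the authors' RMA table. In mutants the falls of Pcx and Gbe1 passed in all 22 alternatives, Hk1 in 21, Pfkfb3 in 19 and Pfkl in 17. The fall of Ldha passed in 12 of 22 and that of Fbp1 in 9. Both were lost with quantile normalization and the authors' RMA table, and their smallest differences were -0.29 and -0.11.

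The controls' count of 6 was 1 without either day 0 control (1.98% and 1.95% of all genes), 3 without control day 2 replicates 1 or 2 (6.03% and 3.65%), and 14 without mutant day 0 replicate 3 (26% of all genes). Pfkfb3 in mutants averaged -1.09 ± 0.15 at day 2 and 2.03 ± 1.76 at day 0 (SD, n = 3 each), and the fall was 8.67-fold with replicate 3 and 4.28-fold without it. In controls the fall of 5.03-fold was called only when that array was left out of the spread (adjusted p = 0.0809 with it and 0.000261 without it) and in 2 other settings. With slide as a replicate block, Got1 and Pygl in controls and Fbp1 in mutants were not called (adjusted p = 0.0751, 0.0653 and 0.0567), while Sds in mutants was (adjusted p = 0.0497).

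Beside the 28 genes, further genes of the same steps were read from lists. The shares of all genes to set beside their counts over both days are the 6.68% lower and 8.66% higher given above. Of 24 other glycolysis genes 2 were higher in mutants over both days (Hkdc1 and Pgam2) and 7 lower, among them Gckr, Pfkm, Mlxipl, Aldoc, Bpgm and Hk3. Hkdc1, a hexokinase-related gene, had levels of 1.94, 2.17 and 1.90 in the mutant day 2 livers, against -2.85, -0.92 and -0.77 in the control day 2 livers, and of 3.79, 3.77 and 3.59 in the mutant day 0 livers, against 2.60 and 1.78 in the control day 0 livers. No mutant array overlapped with a control of its day, and the gene was 5.74-fold higher over both days (adjusted p = 0.00176). Gckr was 2.5-fold lower (adjusted p = 0.0133), and Mlxipl, also called ChREBP, a glucose-sensing activator of Pklr, was 1.47-fold lower (adjusted p = 0.0102). The Gapdh probe was well above background on the 5 day 0 arrays only, with -5.70, -5.71 and -2.73 in the mutant day 0 livers, against -5.08 and -5.43 in the control day 0 livers, and no fold against day 2 is given.

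Of 23 other genes of glucose making and its control, 3 were higher (Gpt2, Sdsl and Fbp2) and 5 lower (Gcgr, Cebpa, Klf15, Nr3c1 and Slc25a13). Gpt2, the mitochondrial alanine aminotransferase, had levels of 3.72, 4.40 and 4.28 in the mutant day 2 livers, against 0.48, 1.64 and 2.41 in the control day 2 livers. At day 0 it had 3.83, 3.45 and 2.53 in the mutant day 0 livers, against 2.15 and 2.19 in the control day 0 livers. It was higher without overlap on both days, 1.86 ± 0.36 (SE, adjusted p = 0.00812), while Gpt was lower, -0.91. Sdsl, a relative of Sds and its neighbour on chromosome 5, was higher as Sds was, 1.12 ± 0.20 (SE, adjusted p = 0.00495), with 3.57, 4.09 and 4.25 in the mutant day 2 livers, against 2.56, 2.69 and 2.76 in the control day 2 livers. Fbp2, the muscle form of Fbp1 (adjusted p = 0.0211), was not well above background on either control day 0 array, so no fold is given. Gcgr, the glucagon receptor, was 1.98-fold lower, -0.98 ± 0.14 (SE, adjusted p = 0.00145), and Cebpa and Klf15, activators of glucose-making genes, were 1.56-fold and 1.56-fold lower (adjusted p = 0.0128 and 0.0162).

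**Figure D5:**
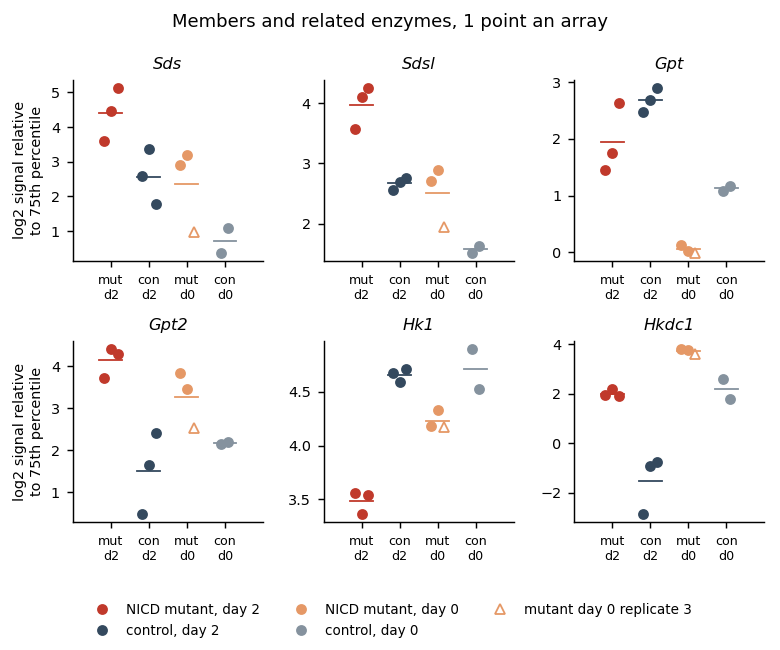
Level of Sds, Gpt and Hk1 beside related enzymes on each array (log2 signal relative to the array's 75th percentile; each panel has its own scale, so levels are not compared between panels). Points are arrays, bars are group means, and the open triangle is mutant day 0 replicate 3; Gpt is lower and Gpt2 higher in mutants at day 0 without overlap, and Hkdc1 is higher where Hk1 is lower.

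Of 21 other glycogen genes tested, 0 were called over both days by limma, with 2 at an unadjusted p under 0.05 and a median difference of 0.02. Of these, Phkb, a phosphorylase kinase subunit, had the smallest p (-0.28, adjusted p = 0.0816). Of 12 genes of pyruvate entry into mitochondria 1 was lower, Mpc1, a subunit of the mitochondrial pyruvate carrier, -0.75 ± 0.11 (SE, adjusted p = 0.00199). Of 12 genes of insulin signalling 3 were lower, which were the insulin receptor Insr (-0.70, adjusted p = 0.0161) and the kinase subunits Pik3cb (-0.42, adjusted p = 0.034) and Pik3r1 (-0.46, adjusted p = 0.0482). Without mutant day 0 replicate 3 the counts lower were 11 of 24 other glycolysis genes, 9 of 23 of glucose making, 1 of 21 of glycogen, 4 of 12 of pyruvate entry and 4 of 12 of insulin signalling, and those higher were 3, 3, 0, 0 and 0, where 11.9% of all genes were lower and 12.8% higher.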

How the data were processed

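Liver RNA of 11 mice in 4 groups (2 or 3 arrays each) was measured on Agilent arrays. Per the file headers, the deposited intensity is the processed signal of Feature Extraction 9.5.3.1 (protocol GE1-v5_95_Feb07), after background subtraction within each array and with no scaling between arrays. The log2 values that the authors deposited beside them, which the submitters' processing notes say were made with RMA, served as an alternative.

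Here the values were log2 of the processed signal over the array's 75th percentile of non-control spots. Spots marked as outliers were left out and repeated spots averaged. Tested probes were those well above background on all arrays of 1 group or more (27142 of 41174), and a gene was read from its tested probe with the highest mean. Positions are mm8, from the files. Gene symbols are those of RefSeq, found by accession (23374 probes), symbol (6733) or synonym (2919), or from the file alone (1758), and 6390 probes had no name.

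Tests used limma 3.58.1 under R 4.3.3, with data.table (version 1.17.8) for reading, 4 group coefficients, and 7 residual and 2.38 prior degrees of freedom. Both days had equal weight. P-values were adjusted over 15889 genes. The steps were tested on simulated data. Replicates 1 to 3 lie on slides 1 to 3. Day 2 arrays of the same number deviated together (correlations of 0.294, 0.239 and 0.285, against -0.231 to -0.0384 for other pairs), so the numbers pair them; at day 0 the 2 pairs gave 0.0761 and 0.0962. Each group has 1 array position on every slide, so position and group cannot be told apart. Alternatives were normexp, quantile normalization, the authors' RMA values, other filters, mean of probes, slide as a block, sex, array weights, trended and robust eBayes, the compared groups alone and leaving out each array.

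The genes described, the lists and the tests were chosen with earlier results of these data known. All 28 measured genes are named, together with Gapdh. Some further glycolysis genes are not reported here. For each list of further genes, up to 5 with the smallest p over both days or up to 3 for the difference between the days could be named. Other genes of those lists (Aldoc, Bpgm, Hk3, Pgam2, Fbp2, Nr3c1 and Slc25a13) are named after their values were seen. Hepatocyte, bile duct, red cell precursor, megakaryocyte, macrophage, granulocyte, endothelial, and stellate cell and fibroblast markers were read as counts and summed levels.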

Additional observations from a re-analysis of the deposited data

How the results depend on the processing

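Over both days 10 of the 28 genes were called, and leaving out 1 array at a time gave from 4 to 13; 3 were called with sex as a covariate. At day 0, where 0 were called, normexp correction, quantile normalization, the authors' RMA table and trended robust eBayes each gave 2, array weights 3, and the filter on all arrays and the replicate block 1 each, and leaving out arrays gave from 0 to 1. At day 2, with 7 called, array weights gave 12 and leaving out arrays from 4 to 13. In controls, day 2 against day 0, the 6 became 1 with sex and 15 with array weights, and from 1 to 14 when arrays were left out. In mutants the 13 became 8 when the compared groups alone were fitted, and from 9 to 16 without single arrays. The difference between the days gave 0 in all settings run. Pfkp reversed over both days without mutant day 0 replicate 3, at -0.62 against 0.14, and leaving out single arrays gave from -0.62 to 0.53. The fits of the compared groups alone have fewer arrays; otherwise the cause was not tested. Pcx, Gys2 and Hk1 passed in all 21 alternatives over both days and all 22 at day 2, and Ppp1r3c in all 21 run at day 2. The replicate block gave -0.95 for Pcx over both days (adjusted p = 0.00198), lost the calls of Fbp1, Slc2a2 and Pygl, gained Ppp1r3b, and changed no other call over both days. Where a day 0 control was left out, the lone control was assumed to vary like the other groups. Genes near background have little signal, which limits Ppp1r3c at day 2.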

Other observations

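Mutant day 0 replicate 3, the array that stood apart, was also read for 12 genes known to respond to low oxygen, a list chosen after the arrays were seen. It lay above all 10 other arrays for 10 of the 12, and by at least 1 log2 unit for 7. Ankrd37 had 5.64 on it, against at most 0.97 elsewhere, Adm 3.37 against at most -0.29, Vegfa, the blood vessel growth factor, 4.77 against at most 1.99, and Slc16a3, a lactate carrier, 6.43 against at most 3.60. Car9 and Pdk1 did not lie above the others on this array. These are values of 1 array, with no test.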
